A study of Danio rerio with 12 samples.

Results

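The genes described here build and bind the extracellular matrix of the zebrafish embryo: the collagens, the laminins, the integrins and the fibronectins. Of 31051 rows in the gene table, 112 carry a name that starts like a collagen alpha chain, a laminin chain, an integrin chain or fn1, whatever its case. These are 60 collagen rows, 16 laminin rows, 29 integrin rows and 2 fibronectin rows. The other 5 rows share only the start of the name: COL4A3BP (1 of 2) and col4a3bpa are ceramide transfer proteins, and itgb1bp1, ITGB1BP2 and itgb1bp3 are proteins that bind integrin tails, so they are given apart from the 4 families. After the filter on low counts 94 rows could be tested, namely 51 collagens, 14 laminins, 23 integrins, both fibronectins and 4 of the non-family rows. None of the other 18 rows exceeded 1.26 CPM (counts scaled to library size) in any library.

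RNA was sequenced from whole embryos of strain AB at 10 somites, when the trunk is being cut into somites and the first muscle fibres form. There were 4 groups of 3 libraries, each made from pooled RNA of embryos extracted and genotyped one by one. Controls were prdm1+/+ with control morpholinos, prdm1 mutants were prdm1-/- with control morpholinos, pbx2/4 morphants were prdm1+/+ with pbx2/4 morpholinos, and double embryos were prdm1-/- with pbx2/4 morpholinos, so every embryo had been injected, at the 1 cell stage. The labels name neither the prdm1 allele nor the number of embryos in a pool, and the morpholinos reach all tissues, so no level can be placed in a cell type.

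The libraries held 9059663 to 17236848 counts, so that 1 count was worth 0.0572 to 0.115 CPM. Their column names fall into 3 sets of 1 library per group, called A, B and C here, and libraries of a set deviated from their group means together. The slow muscle myosin smyhc1 had means of 469.9 CPM in controls and 119.6 CPM in prdm1 mutants (edgeR adjusted p = 0.00865, log2 fold change -1.97 with an SE of 0.27), while prdm1a RNA was 106, 94.8 and 114 CPM in controls and 144, 132 and 141 CPM in mutants. In double embryos prdm1a RNA was 239, 218 and 225 CPM. The pbx2 RNA was higher in morphants than in controls (log2 fold change 2.19 ± 0.21, edgeR adjusted p = 0.00105). For pbx4 the log2 fold change was 0.41 ± 0.15 (edgeR adjusted p = 0.273, and 0.000103 with the set as a block in the fit). Morpholinos block translation or splicing, so RNA levels of their targets do not measure the loss. A level in a pooled whole embryo can differ because fewer cells hold a transcript or because each cell holds less of it, and these cannot be told apart here.

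Collagens are triple helices of alpha chains: types I, II, V and XI form fibrils, types XII and XIV sit on fibril surfaces, type VII anchors the epidermis to the dermis, and type IV forms the sheet of the basement membrane. Laminins are trimers of an alpha, a beta and a gamma chain that start basement membrane assembly, and zebrafish lacking lama1, lamb1a or lamc1 fail to form a normal notochord. Integrins are alpha-beta pairs that receive these ligands at the cell surface. In zebrafish, integrin alpha5 and fibronectin are known to build the fibronectin matrix around forming somites and to be needed for somite boundaries.

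The pbx2/4 morpholinos were read in 2 comparisons that share no library: morphants against controls, and double embryos against prdm1 mutants. A gene was called at an adjusted p under 0.05 in edgeR's quasi-likelihood test over 18117 genes. In morphants 2 of 94 rows were lower and 0 higher (2.13%, against 1.44% of all genes tested), both of them collagens. In double embryos against mutants 1 row was lower and 0 higher (1.06%, against 1.36% of all genes). In edgeR without a block both shares are near the background. The count of called rows moved with the set: with the set as a block in the same fit, 9 rows were higher and 16 lower in morphants (26.6%, against 17.7% of all genes), and 9 higher and 14 lower in double embryos against mutants (24.5%, against 16.2%). Without set A, B or C the blocked fit called 15, 22 and 13 rows in morphants, where it called 7.79%, 13.8% and 8.36% of all genes, and 12, 24 and 13 in the other comparison, beside 5.2%, 13.8% and 8.18%. DESeq2 called 5 rows in morphants and 4 in double embryos against mutants, more than the 2 and 1 of edgeR, and 2.88% and 3.01% of all genes. Without morphant library B or C, or control library A, the count in morphants was 1, beside 0.535%, 0.595% and 0.658% of all genes. Without control library C or double library B, the count in double embryos against mutants was 2, beside 1.08% and 0.684% of all genes.

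The type VII collagen row col7a1l (ENSDARG00000069692) showed the largest decrease among the 94 rows in both comparisons. Controls held 149.7, 125 and 124.5 CPM in sets A, B and C, and mutants 179.7, 151 and 162 CPM. Morphants held 58.2, 31.3 and 34.9 CPM, and double embryos 55.0, 45.6 and 48.6 CPM. Every library with pbx2/4 morpholinos lay below every library without them, by more than the spread within any group. The log2 fold change was -1.68 ± 0.20 (SE, n = 3 and 3, edgeR adjusted p = 0.00252) in morphants and -1.72 ± 0.20 (edgeR adjusted p = 0.00164) in double embryos against mutants. It was called in all 21 alternative fits of each comparison. The other type VII row, COL7A1, was at 28.1 ± 4.74 CPM (SD, n = 3) in controls and 21.5 ± 8.07 CPM in morphants, not called without the block (log2 fold change -0.38, edgeR adjusted p = 0.672) and lower with the set as a block (edgeR adjusted p = 0.0447). The ratio of col7a1l to COL7A1 ran from 4.08 to 5.54 over the 6 libraries without pbx2/4 morpholinos and from 1.39 to 2.35 over the 6 with them. Since col7a1l alone parted these libraries, the ratio is no separate evidence.

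Type VII collagen is a skin collagen, so markers of epidermis and periderm are given beside it. Their summed level, over 12 tested genes, was 24250 to 27670 CPM in controls and 21950 to 28170 CPM in morphants, and the ranges overlap. Of the 12, 1 was called in morphants (8.33%, against 1.44% of all genes), the basal epidermal regulator tp63, which fell by 0.51 on the log2 scale, from a mean of 138 CPM to 97.2 CPM (edgeR adjusted p = 0.0183). With the set as a block 1 was higher and 6 lower in morphants (58.3%, against 17.7%), and 2 higher and 5 lower in double embryos against mutants (58.3%, against 16.2%). The part of the epidermis in the col7a1l result was not tested.

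**Figure D1:**
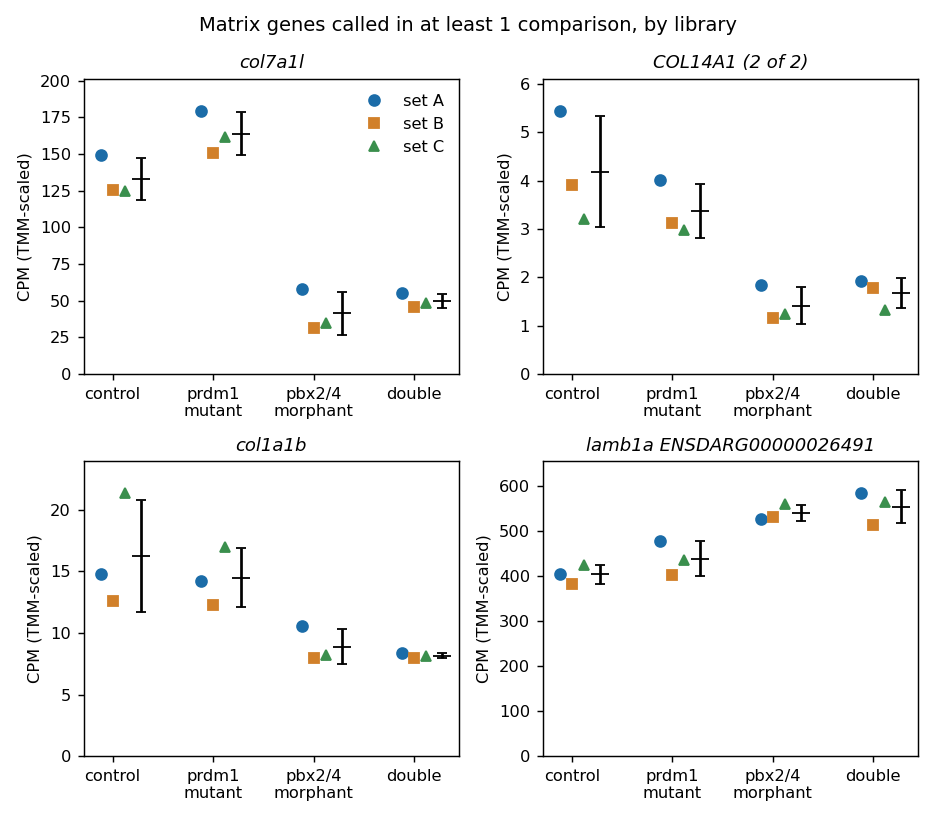
CPM of the 4 rows called in at least 1 comparison (y axes from 0) in each library of the 4 groups; the marker shape gives the set, the bar is the mean and its whiskers the SD of 3 libraries. All 6 libraries with pbx2/4 morpholinos lie below the other 6 for col7a1l, COL14A1 (2 of 2) and col1a1b, and above them for lamb1a ENSDARG00000026491.

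COL14A1 (2 of 2) (ENSDARG00000076623), a chain of the fibril-associated type XIV collagen, was the other row that fell in morphants. It was scarce: controls held 5.45, 3.90 and 3.21 CPM, mutants 4.02, 3.12 and 2.99 CPM, morphants 1.85, 1.15 and 1.25 CPM, and double embryos 1.92, 1.78 and 1.32 CPM. The 6 libraries with the morpholinos again lay below the other 6. The log2 fold change was -1.55 ± 0.29 in morphants (edgeR adjusted p = 0.0220). In double embryos against mutants it was -1.03 ± 0.29 and was called only with the set as a block (edgeR adjusted p = 0.132, and 0.00369 with the block). In morphants the call did not hold without control library A (adjusted p = 0.104), control library B (0.05004), morphant library B (0.0911) or morphant library C (0.108) in edgeR's test. Its deposited values were not whole numbers in any of the 12 libraries, so its level is uncertain where reads are shared between like rows. Its partner row col14a1 stood at 46.3 ± 6.05 CPM in controls and 61.2 ± 18.2 CPM in morphants (log2 fold change 0.40, not called).

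The type I collagen chains form the fibrils of skin and connective tissue. The row col1a1b (ENSDARG00000035809) held 14.8, 12.6 and 21.4 CPM in controls, 14.2, 12.3 and 16.99 CPM in mutants, 10.5, 7.98 and 8.20 CPM in morphants, and 8.36, 7.97 and 8.13 CPM in double embryos. All 6 morpholino libraries lay below the other 6. Its log2 fold change was -0.88 ± 0.21 in morphants (edgeR adjusted p = 0.0618, and 0.00157 with the set as a block) and -0.83 ± 0.21 in double embryos against mutants (edgeR adjusted p = 0.0804, and 0.00267 with the block).

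The partner chain col1a2 held 90.1, 100.8 and 101.0 CPM in controls and 88.0, 55.0 and 59.6 CPM in morphants. Its 6 morpholino libraries too lay below the other 6. The drop stood in sets B and C, while set A gave a difference of -0.03 on the log2 scale (log2 fold change over all 3 sets -0.53 ± 0.16, edgeR adjusted p = 0.148, and 0.00744 with the block). The paralogous chain col1a1a, not called, varied more between sets than between groups, with 66.5, 30.4 and 68.8 CPM in controls and 81.6, 21.9 and 48.5 CPM in morphants. The ratio of col1a1b to col1a1a was 0.163 to 0.415 without the morpholinos and 0.0946 to 0.364 with them. That of col1a1b to col1a2 was 0.125 to 0.211 without and 0.0999 to 0.145 with them. In both ratios the ranges overlap.

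Of the other fibrillar chains on the list of members of known role, none was called with or without the block. The notochord and cartilage collagen col2a1a had means of 957 CPM in controls, 995 in mutants, 932 in morphants and 977 in double embryos. Its fibril partner col11a1a stood at 358 CPM in controls and 385 CPM in morphants, col11a2 at 2.01 and 1.70 CPM, and col5a1 at 121 and 135 CPM. The type IX chains that decorate these fibrils were col9a1 at 70.5 and 65.1 CPM, col9a2 at 69.7 and 64.8 CPM, and col9a3 at 72.3 and 74.4 CPM in controls and morphants. Outside that list, and chosen after their values were seen, COL5A2 (1 of 2) and col11a1b were lower in both comparisons with the set as a block. COL5A2 (1 of 2), a type V chain, held 203, 187 and 175 CPM in controls and 146.5, 158 and 122 CPM in morphants, and its 6 morpholino libraries all lay below the other 6 (edgeR adjusted p = 0.221 in morphants, and 0.0116 with the block).

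Type IV collagen genes lie in pairs, and the pairs gave different values. The col4a5 and col4a6 pair was lower by a small amount: col4a5 held 473, 384 and 405 CPM in controls and 434, 302 and 342 CPM in morphants, with a log2 fold change of -0.23 (edgeR adjusted p = 0.640, and 0.00572 with the block). For col4a6 the log2 fold change was -0.17 (adjusted p = 0.738, and 0.0283 with the block in edgeR). Both were also lower with the block in double embryos against mutants, at -0.26 and -0.24. The col4a1 and col4a2 pair, found in nearly all basement membranes, was not called in either comparison, with log2 fold changes of 0.22 and 0.04 in morphants. Control library A held 99.0 CPM of col4a1 against 54.1 and 56.7 CPM in sets B and C, a wider gap than that between the groups.

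The rest of the listed collagens were not called under either fit. These were the microfibrillar type VI chains col6a1 (5.78 CPM in controls, 6.33 in morphants), col6a2 (7.26 and 7.43) and col6a3 ENSDARG00000077139 (2.31 and 2.32), the network collagen col8a1a (359 and 331), the multiplexin col15a1b (194 and 208) and the hemidesmosomal collagen col17a1a (2.12 and 2.46). The basement membrane collagen col18a1, whose cleavage releases endostatin and which was noted after its values were seen, was lower with the block in both comparisons by under 0.25 on the log2 scale (-0.19 and -0.23). Over the 51 tested collagens the median log2 fold change in morphants was 0.04, with a range from -1.68 to 0.76, against a median of 0.01 over all genes. Their summed level was 4994, 4469 and 4422 CPM in controls and 5147, 3691 and 4027 CPM in morphants, so that set A lay above its control and sets B and C below theirs.

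The fibronectin genes parted. The row fn1 held 958, 734 and 850 CPM in controls, 989, 742 and 860 CPM in mutants, 1386, 992 and 1108 CPM in morphants, and 1321, 1068 and 1018 CPM in double embryos. All 6 libraries with pbx2/4 morpholinos were above all 6 without them. The log2 fold change was 0.46 ± 0.16 in morphants (edgeR adjusted p = 0.241, and 0.000109 with the set as a block) and 0.40 ± 0.16 in double embryos against mutants (adjusted p = 0.342, and 0.000276 with the block, in edgeR). The row fn1b held 1130, 784 and 821 CPM in controls and 1200, 649 and 738 CPM in morphants, groups that overlap (log2 fold change -0.08, edgeR adjusted p = 0.958). The ratio of fn1 to fn1b, in which library depth cancels, was 0.848, 0.937 and 1.04 in controls, 0.828, 0.929 and 0.987 in mutants, 1.16, 1.53 and 1.5 in morphants, and 1.2, 1.43 and 1.39 in double embryos. Each of the 6 morpholino libraries had a higher ratio than any of the other 6. The fn1 row alone parted the same libraries, so the ratio is no separate evidence. Transcript lengths were not used, so the ratio compares libraries and does not say which gene is the more abundant.

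**Figure D2:**
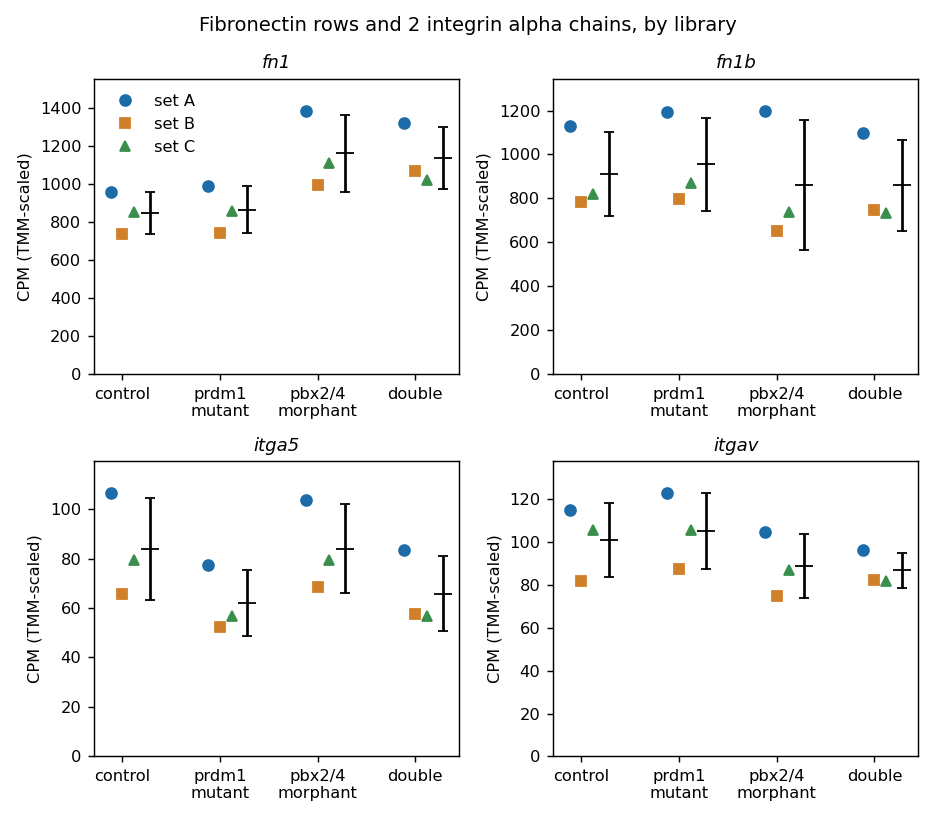
CPM of both fibronectin rows and of the fibronectin-binding alpha chains itga5 and itgav (y axes from 0) by library, with the mean and SD of 3 libraries beside each group; marker shapes give the set. The fn1 row is higher in the 6 morpholino libraries, fn1b overlaps between groups, and within each set itga5 is lower in the prdm1-/- library than in the prdm1+/+ library with the same morpholinos.

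Among the laminins the beta1 chain rows stood out. There are 2 rows named lamb1a, told apart by their identifiers. The row lamb1a ENSDARG00000026491 held 406, 383 and 425 CPM in controls, 479, 402 and 437.5 CPM in mutants, 528, 533 and 560.4 CPM in morphants, and 585, 514 and 565.5 CPM in double embryos. The 6 morpholino libraries were above the other 6. The log2 fold change was 0.42 ± 0.10 in morphants (edgeR adjusted p = 0.0589, and 0.000145 with the block) and 0.34 ± 0.10 in double embryos against mutants (adjusted p = 0.139, and 0.000750 with the block, in edgeR). The row lamb1a ENSDARG00000089288 held 610, 469 and 443 CPM in controls and 830, 586 and 590 CPM in morphants. It was higher in each set, by 0.44, 0.32 and 0.41 on the log2 scale, although the groups overlap across sets (edgeR adjusted p = 0.547, and 0.000206 with the block). Whether these rows are 2 genes or 2 pieces of 1 gene model was not examined, so they may not be independent.

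The other chains of laminin-111, the embryonic trimer, differed less. LAMA1 held 619, 398 and 370.4 CPM in controls and 765, 516.5 and 420 CPM in morphants (log2 fold change 0.29, edgeR adjusted p = 0.822, and 0.00231 with the block). In double embryos against mutants its log2 fold change was 0.06, not called under either fit. The gamma1 chain lamc1, which pairs with most alpha and beta chains, stood at 727 ± 67.7 CPM in controls and 769 ± 96.6 CPM in morphants and was not called. The summed lamb1a rows gave 1.24 to 1.26 times the lamc1 level in controls, 1.24 to 1.37 times in mutants, 1.54 to 1.59 times in morphants and 1.47 to 1.7 times in double embryos.

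The beta2-like rows lamb2 and lamb2l moved in opposite directions with the set as a block. The row lamb2, the beta chain of synaptic and muscle basement membranes in mammals, held 13.9, 13.3 and 13.4 CPM in controls and 22.4, 17.1 and 18.1 CPM in morphants (log2 fold change 0.51 ± 0.14, edgeR adjusted p = 0.115, and 0.00374 with the block). The row lamb2l, noted after its values were seen, held 74.7, 45.0 and 60.1 CPM in controls and 53.9, 34.5 and 39.9 CPM in morphants (log2 fold change -0.49 ± 0.26, adjusted p = 0.517, and 0.000388 with the block, in edgeR). Their ratio, lamb2l over lamb2, was 3.38 to 5.99 over the libraries without the morpholinos and 2.02 to 2.87 over those with them. Since lamb2l was picked with its values in these libraries known, the ratio is no separate evidence. The gamma3 chain lamc3 rose with the block from a low level, 1.91 ± 0.66 CPM in controls to 3.45 ± 1.68 CPM in morphants (edgeR adjusted p = 0.474, and 0.0173 with the block).

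The remaining listed laminins were not called in morphants under either fit. The vascular and muscle chain lama4 was at 24.4 CPM in controls and 32.1 in morphants, the epidermal chain lama5 at 350 and 388, lama2, the muscle laminin chain, at 1.299 and 0.94, lamb1b at 5.20 and 5.20, and lamb4 at 2.71 and 2.16. In double embryos against mutants lama4 was called only with the block (log2 fold change 0.54, adjusted p = 0.584, and 0.0268 with the block, in edgeR). Over the 14 tested laminins the median log2 fold change was 0.35 in morphants and 0.34 in double embryos against mutants, beside 0.01 over all genes in each. In double embryos against controls it was smaller, 0.12, with 9 of the 14 rows above 0. The summed laminin level was 2991, 2326 and 2376 CPM in controls and 3655, 2744 and 2739 CPM in morphants, higher in each set.

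**Figure D3:**
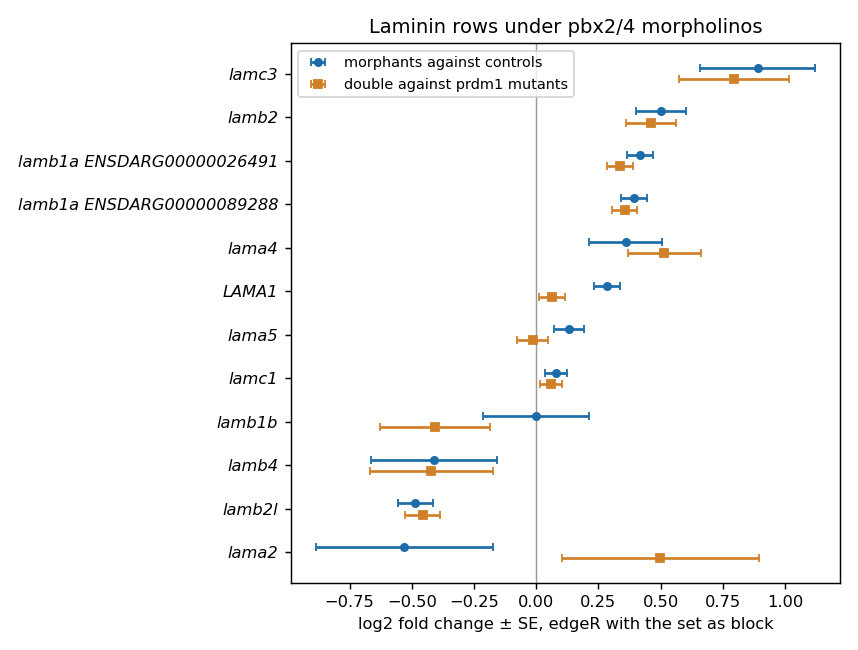
Log2 fold change with its SE for lamb2l and the tested laminin rows on the list of members of known role, from edgeR with the set as a block, in morphants against controls (circles) and in double embryos against prdm1 mutants (squares). The lamb1a rows, lamb2 and lamc3 lie above 0 and lamb2l below 0 by more than their SE in both comparisons, while lamc1 and lama5 lie near 0.

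No integrin row was called for the pbx2/4 morpholinos without the block. The fibronectin receptor chain itga5 held 107, 65.7 and 79.5 CPM in controls and 104, 68.5 and 79.6 CPM in morphants, a log2 fold change of 0.00. Its partners itgb1a and itgb1b, the beta1 chains, were at 81.1 and 123 CPM in controls and 76.2 and 123.5 CPM in morphants. The laminin-binding chains itga6a (162 and 168 CPM), itga6b (37.7 and 43.3), itga3a (2.87 and 2.94), itga3b (105 and 89.5) and itgb4 (9.50 and 6.92) were not called in morphants under either fit. The smallest p among integrins in morphants belonged to itga7, the laminin receptor chain of muscle fibres, at 3.81, 2.76 and 2.83 CPM in controls and 1.45, 2.12 and 1.43 CPM in morphants. Its groups do not overlap, as held in either direction for 13% of integrins and 16.2% of all genes. The levels of itga7 were a few CPM (log2 fold change -0.92 ± 0.35, edgeR adjusted p = 0.278, and 0.0256 with the block).

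With the block 1 integrin row was higher and 3 lower in morphants, and 0 were higher and 4 lower in double embryos against mutants. That is 17.4% of integrins each time, against 17.7% and 16.2% of all genes, shares near the background. Of the beta chains that pair with alpha v, itgb5 and itgb8 were lower with the block in both comparisons, and itgb1a, itgb1b, itgb3b and itgb6 were not called. The row itgb5, noted after its values were seen for the morphants and holding the smallest p among integrins in double embryos against controls, held 33.96, 34.6 and 36.8 CPM in controls, 35.1, 31.4 and 35.2 CPM in mutants, 28.2, 23.5 and 31.7 CPM in morphants and 25.4, 23.9 and 27.8 CPM in double embryos. Double embryos lay below mutants in all libraries (log2 fold change -0.40 ± 0.13, edgeR adjusted p = 0.203, and 0.00443 with the block). Between double embryos and mutants the groups did not overlap, in either direction, for 17.4% of integrins against 15.7% of all genes. The row itgb8 had the smallest p among integrins in that comparison: mutants held 5.55, 4.79 and 2.85 CPM and double embryos 2.61, 1.57 and 1.26 CPM (log2 fold change -1.28 ± 0.37, adjusted p = 0.144, and 0.00132 with the block, in edgeR). The alpha partner itgav stood at 101 CPM in controls and 88.9 CPM in morphants, not called, and was lower with the block in double embryos against mutants (log2 fold change -0.28, edgeR adjusted p = 0.622, and 0.0165 with the block).

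Over the 23 tested integrins the median log2 fold change was -0.14 in morphants and -0.28 in double embryos against mutants, beside 0.01 over all genes. Summed, the integrins stood at 913, 730 and 778 CPM in controls and 877, 698 and 745 CPM in morphants. Among the non-family rows, ITGB1BP2, called melusin in mammals and known there as a muscle protein that binds the beta1 tail, held 36.5, 25.6 and 45.0 CPM in controls and 23.6, 13.7 and 18.2 CPM in morphants. These groups do not overlap, as held in either direction for 16.2% of all genes (log2 fold change -0.95 ± 0.26, edgeR adjusted p = 0.114, and 0.000190 with the block). Summed slow muscle markers beside it were 510 to 714 CPM in controls and 423 to 575 CPM in morphants, and fast muscle markers 52.7 to 70.3 CPM and 19.2 to 32.2 CPM. Within these lists 1 of 7 slow and 3 of 10 fast muscle genes had a log2 fold change above 0 in morphants, as did 9383 of all 18117 genes. In edgeR 1 slow and 2 fast muscle genes were called, all lower (14.3% and 20%, against 1.44% of all genes). With the block 1 slow muscle gene was higher and 2 lower, and 0 fast muscle genes were higher and 4 lower (42.9% and 40%, against 17.7%). The part of slow and fast muscle in the ITGB1BP2 and itga7 results was not tested.

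**Figure D4:**
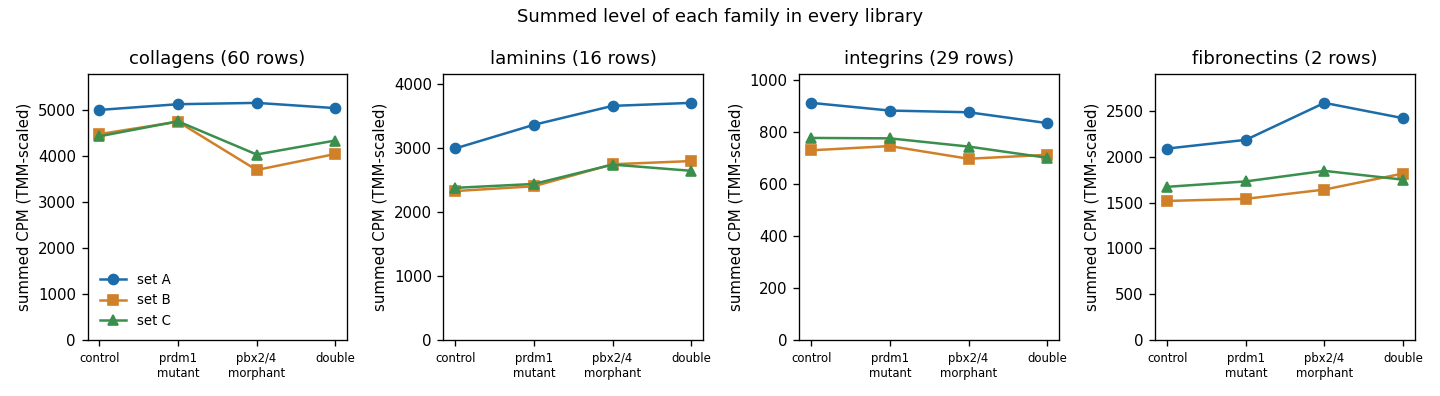
Summed CPM of all rows of each family (y axes from 0) in each library, with lines joining the 4 libraries of 1 set. Set A lies highest throughout, the laminin sum is higher in the morpholino libraries than in the control of the same set, and the collagen sum of sets B and C is lower in morphants than in controls.

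Both pbx2/4 comparisons gave similar log2 fold changes for these rows. Across the 94 rows Pearson's r was 0.706, and 78 had the same sign. The rows are not independent replicates, and although no library is shared, the sets are. With the set as a block, 6 rows were higher in both comparisons, or 66.7% of each list of 9: fn1, both lamb1a rows, lamb2, lamc3 and col12a1. The row col12a1 had means of 19.0 CPM in controls and 27.7 CPM in morphants. The other type XII row, COL12A1 (ENSDARG00000019601), went the other way, from 20.2 to 16.1 CPM, and was called in neither comparison. Of the lower rows 12 were in both, 75% of 16 and 85.7% of 14: 7 collagens besides col7a1l (COL14A1 (2 of 2), COL5A2 (1 of 2), col1a1b, col4a5, col4a6, col11a1b and col18a1), lamb2l, itgb5, itgb8 and ITGB1BP2. No row was called in opposite directions. The correlation, the shared signs and these overlaps were not computed over all genes, so they do not set these rows apart from other genes. Without any block, 8 of the 94 rows had all 6 morpholino libraries on one side of the other 6 (8.51%, against 6.28% of all genes). Lower were col7a1l, COL14A1 (2 of 2), col1a1b, col1a2 and COL5A2 (1 of 2), and higher were fn1, lamb1a ENSDARG00000026491 and lamb2.

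**Figure D5:**
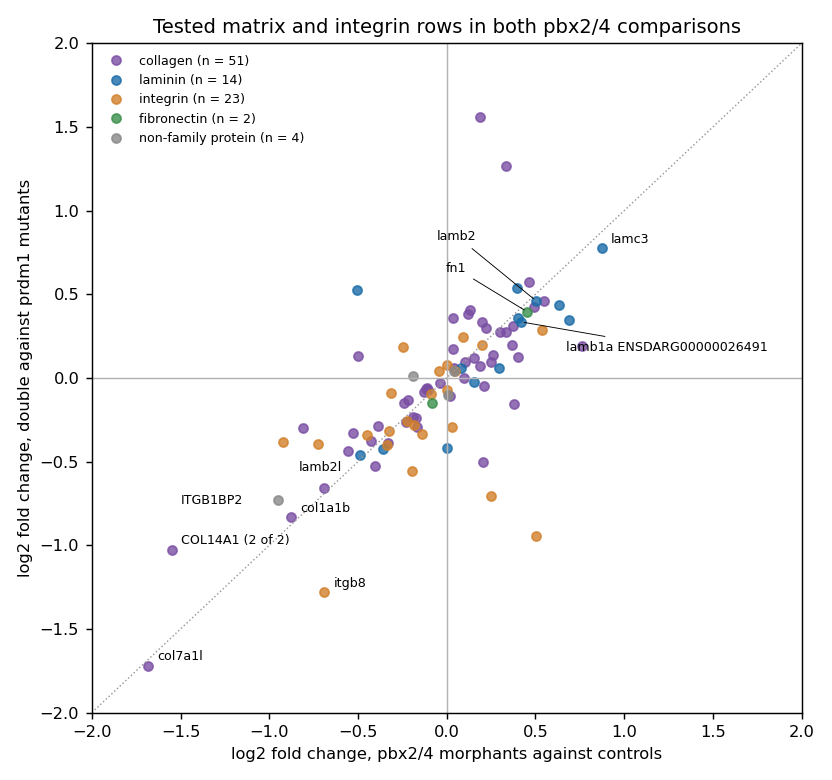
Each point is 1 of the 94 tested rows, by its log2 fold change in morphants against controls (x axis) and in double embryos against prdm1 mutants (y axis), from edgeR without the block; the dotted line marks equal values and colours give the family. Of the 94 points 78 have the same sign on both axes, with col7a1l farthest toward the lower left.

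Few of these genes passed the test for loss of prdm1. In mutants against controls 0 of 94 rows were called in edgeR (0.193% of all genes were), and DESeq2 also called 0 (0.298%). An unadjusted p under 0.05 in edgeR was held by 2 of the 94 rows and by 480 of all 18117 genes. In double embryos against morphants 0 were called in edgeR (0.149% of all genes) and 0 by DESeq2 (0.368%). Here 6 of the 94 rows had an unadjusted p under 0.05 in edgeR, as did 491 of all 18117 genes. With the set as a block 1 row was called in each (1.06%, against 1.1% and 1.2% of all genes), and it was itga5 both times. The mutants held 77.4, 52.4 and 56.7 CPM of itga5 against 107, 65.7 and 79.5 CPM in controls, and double embryos 83.3, 57.4 and 56.7 CPM against 104, 68.5 and 79.6 CPM in morphants. In every set the prdm1-/- library was the lower, though the groups overlap across sets.

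The log2 fold change of itga5 was -0.43 ± 0.23 in mutants (edgeR adjusted p = 1.00, and 0.00333 with the block) and -0.35 ± 0.23 in double embryos against morphants (adjusted p = 1.00, and 0.0115 with the block, in edgeR). With the block, leaving out set B kept both calls (adjusted p = 0.00575 and 0.0163). Leaving out set A gave edgeR adjusted p = 0.183 and 0.207, and leaving out set C gave 0.0822 and 0.273. The ratio of itga5 to itgav was 0.752 to 0.925 in controls, 0.536 to 0.630 in mutants, 0.915 to 0.991 in morphants and 0.694 to 0.865 in double embryos. The ratio of itga5 to its partner itgb1b was 0.507 to 0.781 in controls and 0.401 to 0.614 in mutants, which overlap. It was 0.534 to 0.778 in morphants and 0.444 to 0.66 in double embryos, which overlap too. Slow muscle markers, summed over 7 genes, moved with prdm1 loss as well, from 510 to 714 CPM in controls to 118 to 206 CPM in mutants. The sum hides differences within the list. Of the 7 genes 4 were called lower in edgeR (57.1%, against 0.193% of all genes), while 2 had a log2 fold change above 0, up to 2.39. The part of slow muscle in the itga5 difference was not tested. Paraxial mesoderm markers summed to 987 to 1171 CPM in controls and 967 to 1121 CPM in mutants.

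In mutants the basement membrane chain col4a4 stood at 1.72 ± 0.40 CPM against 0.78 ± 0.05 CPM in controls, and lama2 at 0.65 ± 0.21 CPM against 1.299 ± 0.44 CPM. Of the integrins itgb8 came first, with 4.40 ± 1.39 against 2.69 ± 0.71 CPM, and of the fibronectins fn1b, with a log2 fold change of 0.07. In double embryos against morphants the first rows were COL23A1 (1 of 4) with 1.31 against 0.60 CPM and ITGB7 with 0.57 against 1.33 CPM. None of these was called with or without the block, and all but fn1b were at levels of a few CPM, where a library held few counts. For itga10, noted after its values were seen, 3 morphant libraries held 1.29, 16.2 and 2.14 CPM. Controls held 4.53, 4.59 and 4.41 CPM, mutants 3.22, 1.34 and 3.85 CPM, and double embryos 0.61, 2.73 and 1.26 CPM. Only morphant library B lay above the controls. Over the alternative fits its log2 fold change in morphants ran from -1.37 to 0.99, so its sign was not settled.

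Double embryos against controls joined both changes. Here 1 row was higher and 3 lower (4.26%, against 2.25% of all genes). These controls are the ones used for the morphants and mutants, so the values stand beside, not on top of, those above. The row lamb1a ENSDARG00000026491 was higher (log2 fold change 0.45 ± 0.10, edgeR adjusted p = 0.0310), and col7a1l (-1.42 ± 0.20, adjusted p = 0.00311), COL14A1 (2 of 2) (-1.33 ± 0.29, adjusted p = 0.0351) and col1a1b (-1.004 ± 0.21, adjusted p = 0.0271) were lower in edgeR's test. With the block 15 rows were higher and 14 lower (30.9%, against 20.2%), and without set A, B or C it called 12, 35 and 15 rows, beside 7.8%, 18.1% and 10.6% of all genes. In edgeR without the block the count was 1 without control library A or C or double library A or C. The same fits called 1.06%, 0.889%, 1.01% and 1.46% of all genes. The count was 2 without control library B, mutant library C or morphant library C, beside 1.67%, 1.69% and 1.78%.

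Only col7a1l was called under all 12 settings that left out 1 library. Without 1 library the call of lamb1a ENSDARG00000026491 was lost 7 times (edgeR adjusted p from 0.0502 to 0.128), when control library A, B or C, mutant library C, morphant library C or double library A or C was left out. That of COL14A1 (2 of 2) was lost without any 1 of those 7 libraries or of double library B, with the largest edgeR adjusted p of 0.145 without control library A. That of col1a1b was lost without control library A or C or any 1 of the double libraries (edgeR adjusted p from 0.0613 to 0.131). Within this comparison itga5 was lower only with the block (log2 fold change -0.35, edgeR adjusted p = 0.593, and 0.00176 with the block), and col4a1 and col4a2 were higher only with it, at 0.39 and 0.23 on the log2 scale (edgeR adjusted p = 0.785 and 0.818, and 0.0170 and 0.0295 with the block).

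The interaction asks whether prdm1 loss had another effect in pbx2/4 morphants than in controls. Of the 94 rows 0 were called in edgeR with or without the block and 0 by DESeq2. An unadjusted p under 0.05 in edgeR was held by 0 of them and by 103 of all 18117 genes. None of all 18117 genes was called in edgeR (0%). The median interaction term over the rows was -0.03 on the log2 scale. For fn1 it was -0.06 ± 0.23. The smallest p of their families belonged to the scarce rows COL23A1 (1 of 4), lama2 and ITGB7, whose interaction terms of 0.93, 1.03 and -0.95 had SEs of 0.61, 0.54 and 0.52.

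Partner genes from lists of the matrix pathway, which were chosen with earlier results of these data known, gave few calls without the block. Of 36 tested basement membrane and matrix partners 2 fell in morphants and 0 rose (5.56%, against 1.44% of all genes), and with the block 7 were lower and 9 higher (44.4%, against 17.7%). Both of the unblocked calls are thrombospondins, secreted proteins of the matrix around tendons and muscle: thbs4b from a mean of 124 to 68.4 CPM (log2 fold change -0.86 ± 0.13, edgeR adjusted p = 0.00730) and thbs2b from 10.2 to 3.47 CPM (-1.56 ± 0.29, adjusted p = 0.0206). Of 28 collagen processing enzymes and chaperones 1 rose (3.57%, against 1.44%). It was loxl4, a lysyl oxidase that cross-links collagen, from 0.48 to 3.99 CPM (3.11 ± 0.42, adjusted p = 0.00416 in edgeR). Of 16 metalloproteases and inhibitors 1 rose (6.25%, against 1.44%), the gelatinase mmp2, from 77.8 to 182.5 CPM (1.23 ± 0.18, edgeR adjusted p = 0.00639). The genes thbs4b, thbs2b, loxl4 and mmp2 were all called in the same direction in double embryos against mutants. With the block, 2 processing genes were higher and 3 lower in morphants (17.9%, against 17.7% of all genes). Of the metalloproteases and inhibitors 1 was higher and 1 lower (12.5%, against 17.7%). The processing list was thus near the background, and the metalloprotease list below it. Of 25 cytoplasmic partners of integrin adhesions and of 19 members of the dystrophin and dystroglycan complex 0 were called in morphants in edgeR's test. An unadjusted p under 0.05 in that test was held by 2 and 0 of them, and by 2178 of all 18117 genes. With the block, 4 of the adhesion partners were higher and 1, ITGB1BP2 again, lower, and 1 of the dystrophin list was higher and 3 lower, which is 20% and 21.1% of these lists against 17.7% of all genes, shares near the background. DESeq2 calls were not counted for these lists.

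Levels also differed between sets in a way that the groups did not. Set A was the highest of the 3 sets in all 4 groups for 37 of the 94 rows (39.4%), against 14.6% of all genes, and set B for 2.13% against 15%. By family this held for 20 of 51 collagens, 6 of 14 laminins, 8 of 23 integrins and both fibronectins. LAMA1, for one, stood at 619 CPM in control library A and at 398 and 370.4 CPM in control libraries B and C. Neural tube markers moved with the morpholinos, from a sum of 1169 to 1188 CPM in controls to 900.1 to 929 CPM in morphants, while notochord markers summed to 311 to 371 CPM and 303 to 384 CPM. The part of these tissues in the differences above was not tested.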

How the data were processed

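Gene-level values of 12 libraries (3 per group) were analysed. The authors deposited estimated counts per gene: 13.7% of the values are not whole numbers, and 17 of the tested rows described here hold some. TopHat 1.4, edgeR and build Zv9 are named per the submitters' processing notes, and no source used here names the counting step. Each library's group was read from words in its column name, and replicate numbers could not be assigned. In some names the letters W and M were taken to mean wild type and mutant at prdm1, which is an interpretation. The authors' own comparison tables were not used here.

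Values were rounded and tested with edgeR 4.0.16 in R 4.3.3: TMM scaling, a filter by expression in the groups, 1 quasi-likelihood model of 4 groups with 8 residual degrees of freedom, and Benjamini-Hochberg adjustment over 18117 genes with calls under 0.05. The fit without the block was run on simulated counts. Those libraries were independent and had no set effect, so the run cannot show how the test behaves where libraries deviate by set. CPM are TMM-scaled, and within-set log2 differences carry a pseudocount of 0.5 CPM. Alternatives were DESeq2 1.42.0, RLE scaling, other filters, a threshold of 0.01, only the groups compared, each library left out, and the set as replicate block. The pairing comes from the column names: deviations from group means correlated at 0.485 to 0.709 over 18 same-set pairs and at -0.509 to -0.0593 over 36 others. Centring on group means makes the other pairs negative on average once same-set pairs are positive, so their range is no separate evidence. With the block the common biological coefficient of variation was 0.0754, and without it 0.212. No libraries of a group were alike within sampling noise. In every group libraries A and C differed least, with a chi-square statistic per gene of 12.2 in controls. The control pairs A with B and B with C gave 24.2 and 23.8. The labels describe separate rounds of egg collection. Column names do not give the round, and some in different sets share a sample number. If each set is a separate round, p-values measure the spread between these pools. At 9059663 to 17236848 counts a library, rows of a few CPM rest on few counts.

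Named were all called rows, 42 tested rows of a list of 49 symbols of known role, and the row of smallest p per family and comparison. One such row is not reported here. The members and lists were chosen with earlier results of these data known. Of the 112 identifiers, 87 are in the table of gene names used, and row names are given as in the files. No sequences or coordinates are given, since no genome of the build was used here.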

Additional observations from a re-analysis of the deposited data

How the results depend on the processing

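Under every alternative the direction held for col7a1l in its 3 comparisons with pbx2/4 morpholinos, where it was called each time, for COL14A1 (2 of 2) and fn1 in morphants and double embryos against controls, for col1a1b and lamb1a ENSDARG00000026491 in double embryos against controls, and for itga5 in the 3 comparisons with prdm1 loss. With the replicate block the counts of called rows were 1 in mutants, 25 in morphants, 29 in double embryos against controls, 23 in double embryos against mutants and 1 in double embryos against morphants. This pairing by set changed no other count, the interaction included. Leaving out 1 whole set from the blocked fit was chosen after seeing the data. Without set A, B or C it gave 15, 22 and 13 rows in morphants, 12, 35 and 15 in double embryos against controls, and 12, 24 and 13 against mutants. In double embryos against morphants it gave 1, 1 and 1, beside 0.399%, 1.17% and 0.435% of all genes. Without set B it called 1 row in mutants, beside 1.08%. DESeq2 called 5 rows in morphants (2.88% of all genes) and 4 in double embryos against mutants (3.01%). With only the groups compared in the fit, or at an adjusted p under 0.01, 1 row was called in morphants and 1 in double embryos against controls. The shares of all genes were 0.697% and 1.2% with only the groups compared, and 0.447% and 0.839% under 0.01. Leaving out each library gave 1 to 3 rows in morphants, 1 to 4 in double embryos against controls, 1 to 2 against mutants and 0 in the other comparisons. The same fits called 0.425% to 1.37% of all genes in morphants and 0.889% to 2.18% in double embryos against controls. Against mutants they called 0.393% to 1.21%. The cause of these changes was not tested, except that fewer libraries leave fewer degrees of freedom. RLE scaling and other filters moved no count by over 1.5 times. Rows of a few CPM are limited by depth.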
